A study of Mus musculus with 37 samples.

Results

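The 15 mouse oocytes labelled MI, all sequenced as single cells in batch B, are described here for how they differ from one another. They were taken by their label alone from the 37 oocytes of the series. The aim was to part spread that goes with library measures from spread that does not, inside 1 stage.

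Each library holds the RNA of 1 oocyte, made with Smart-seq2 and KAPA HyperPlus and read as paired ends. The study asks how the oocyte transcriptome changes as meiosis resumes. The donors were C57BL/6 females of 6 to 8 weeks primed with 5 IU of PMSG, and the zona was removed with acidic Tyrode's solution. The 10 GV oocytes of batch B, used only for comparison, were taken 48 h after PMSG, and the MI oocytes were taken likewise and then cultured for 8 h in M16 medium. The number of mice behind each stage is not stated, so oocytes may share an animal, and p-values measure the spread between these oocytes only. Libraries of batch A, 6 GV and 6 MII oocytes, were not used.

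A GV oocyte is arrested in meiotic prophase, with a store of maternal messages built up during growth. On release from the follicle it breaks down its nuclear envelope and builds the first meiotic spindle, reaching metaphase I (MI). Transcription is largely silent during this time, and messages are read out by controlled polyadenylation, translation and decay rather than by new synthesis.

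MI 15 stood apart from the other MI oocytes. Its library held 2709280 expected counts, the units in which RSEM shares reads among genes, while the other 14 held between 10051024 in MI 1 and 19390128 in MI 8. The median over the 15 was 12840734. It had 12505 genes with at least 1 expected count, against a median of 17404 and a highest of 19228 in MI 7. By HTSeq it had 13582 genes, and the fewest were in MI 9, at 12481. Ribosomal RNA-like features took 50.3% of its counts, the highest share, with MI 6 close at 48.2%. The lowest was 20.8% in MI 7 and the median 31.4%, and GV 7 reached 50.1%. By HTSeq these features took 11.4% in MI 15, again the highest, with a lowest of 3.88% in MI 4 and a median of 6.24%. The median distance of an oocyte to the others, 1 minus Spearman's rho over genes, was 0.166 in MI 15, 0.136 in the next oocyte, MI 9, and 0.0887 in the closest, MI 4. In MI 15, 2939 genes lay more than 2-fold below the median of the other oocytes, 343 lay more than 2-fold above it, and 183 of the genes ranked were listed at 0. On this scale the median of all ranked genes was itself shifted in MI 15, by -0.68 log2 units (-0.36 by HTSeq). The main results are given with and without it.

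MI 4, MI 8 and MI 9 stood apart in another way. The median ratio of HTSeq counts to RSEM expected counts was 1.13, 1.12 and 1.07 in them and between 1.99 and 2.12 in the other 12. The ratio falls into separate clusters, so no correlation with it is given. Genes of the mitochondrial genome (mt- genes) took between 1.12% of counts in MI 6 and 1.97% in MI 12, with a median of 1.63%. By HTSeq they took between 2.53% in MI 7 and 5.32% in MI 1, with a median of 2.96%. Cytoplasmic ribosomal protein genes took between 0.134% in MI 6 and 0.305% in MI 12. No pair of MI libraries was a near copy of another, with Spearman correlations across genes from 0.805 to 0.931. There were no molecular identifiers, so precision given from counts covers counting error only.

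**Figure D1:**
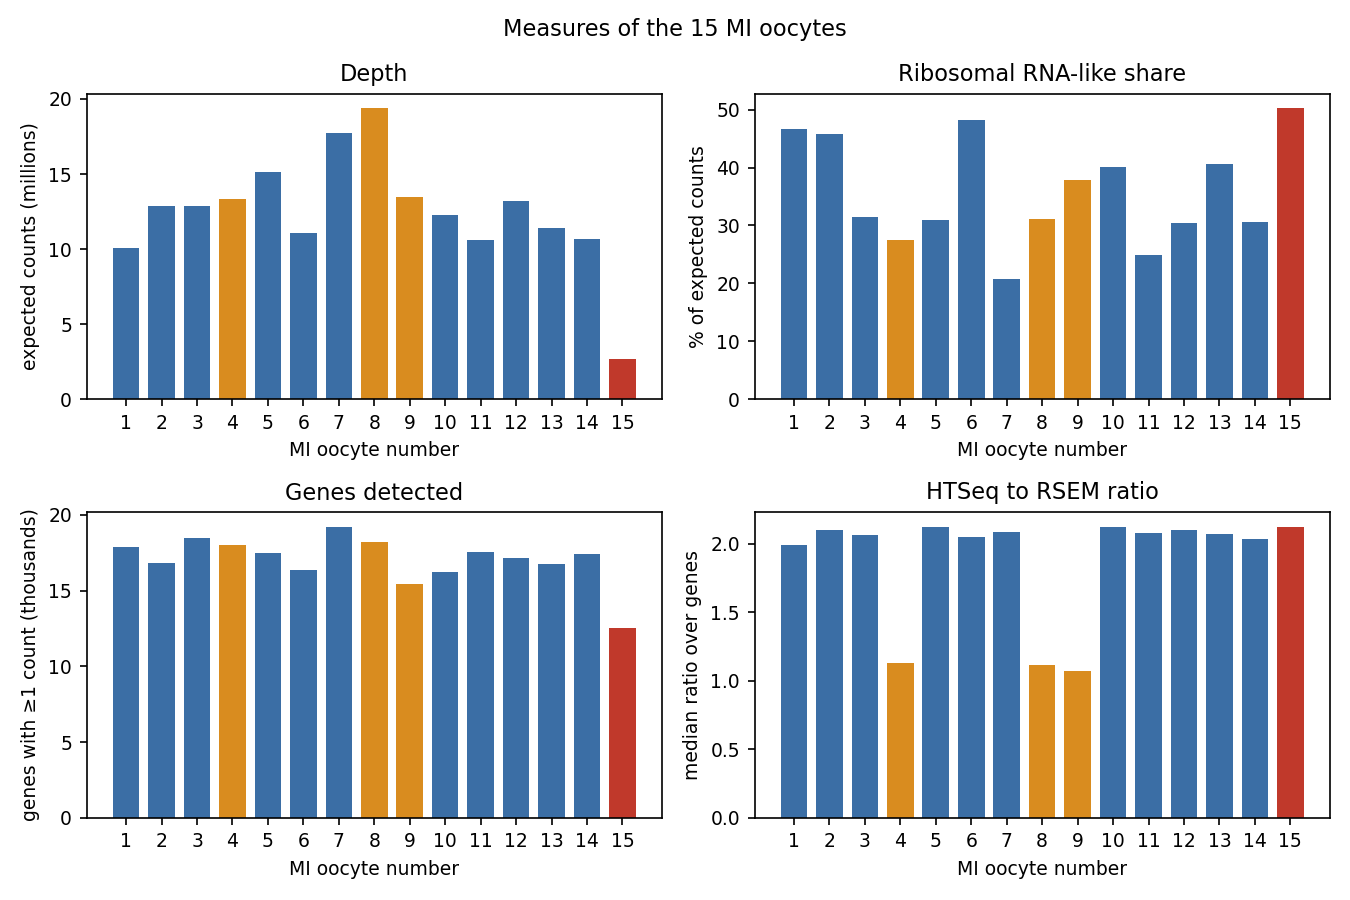
Depth in expected counts, share of ribosomal RNA-like features, genes detected and the median HTSeq to RSEM ratio in each of the 15 MI oocytes, 1 bar an oocyte. By expected counts MI 15 (red) has the lowest depth, 2709280, and the fewest genes, 12505. MI 4, MI 8 and MI 9 (orange) have ratios of 1.13, 1.12 and 1.07.

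All MI libraries carried the oocyte's own messages. The 20 oocyte markers were each found in all 15 oocytes, and their summed level was 4734 CPM (counts scaled to the library total) in the lowest oocyte, MI 6, 7570 in the median and 10646 in the highest, MI 11. Their most abundant member was Gdf9, the oocyte growth factor that acts on cumulus cells, at 1109 CPM in the lowest oocyte, 1458 in the median and 3049 in the highest. Of 20 cumulus and granulosa markers the sum was 23.3 CPM in MI 1, 40.3 in the median and 59.9 in MI 10. Nr5a2, a nuclear receptor, led them with 5.53 CPM in the lowest oocyte, 17.5 in the median and 43.2 in MI 15, and Foxl2, Amh, Amhr2, Hsd17b1 and Ptx3 were listed at 0 in all 15.

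The 13 markers of theca, stroma and endothelium summed to 32.3 CPM in MI 15, 73.2 in the median and 129 in MI 11. Most of that was Pecam1, an adhesion protein of endothelium, with a highest level of 109 CPM, while Col1a1, Dcn, Cyp17a1 and Cdh5 were listed at 0 throughout. The 13 blood and immune markers summed to 1.18 CPM in MI 6, 3.94 in the median and 9.58 in MI 5, led by the globin gene Hbb-bs. Of these, 6 were listed at 0 in all 15, namely Cd52, Cd74, Tyrobp, Fcer1g, Lyz2 and Hba-a2. The part of other cells in the spread between oocytes was not tested beyond these levels.

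Genes were ranked by how much they varied for their level. For each of the 8659 genes with a mean of at least 50 expected counts, of 54752 in the table without ERCC spike-ins, the coefficient of variation (CV, SD over mean of CPM) was set against a loess trend on the mean. Excess is log2 of the squared CV minus that trend, a description with no test. The median gene had a CV of 39.5%. Counting error made up a median of 2.73% of the squared CV and at most 31.9%, so most of the spread was larger than counting error. A CPM is a share of a library, so less of a transcript and more of the others cannot be told apart. In 879 genes, 10.2% of all, a single oocyte held over 50% of the summed squared deviations, and in 240 of them that oocyte was MI 15. By construction about as many genes lie above the trend as below it, here 4385 or 50.6%.

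The 100 genes with the largest excess had a median CV of 102%. In 53 of them MI 15 was the most deviant oocyte, always as the highest. MI 11 followed with 11 genes, MI 3 with 10, MI 8 with 7, MI 7 with 6 and MI 5 with 4. A single oocyte held most of the deviations in 68. Protein-coding genes made up 79 of the 100, and 92.2% of all genes ranked.

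**Figure D2:**
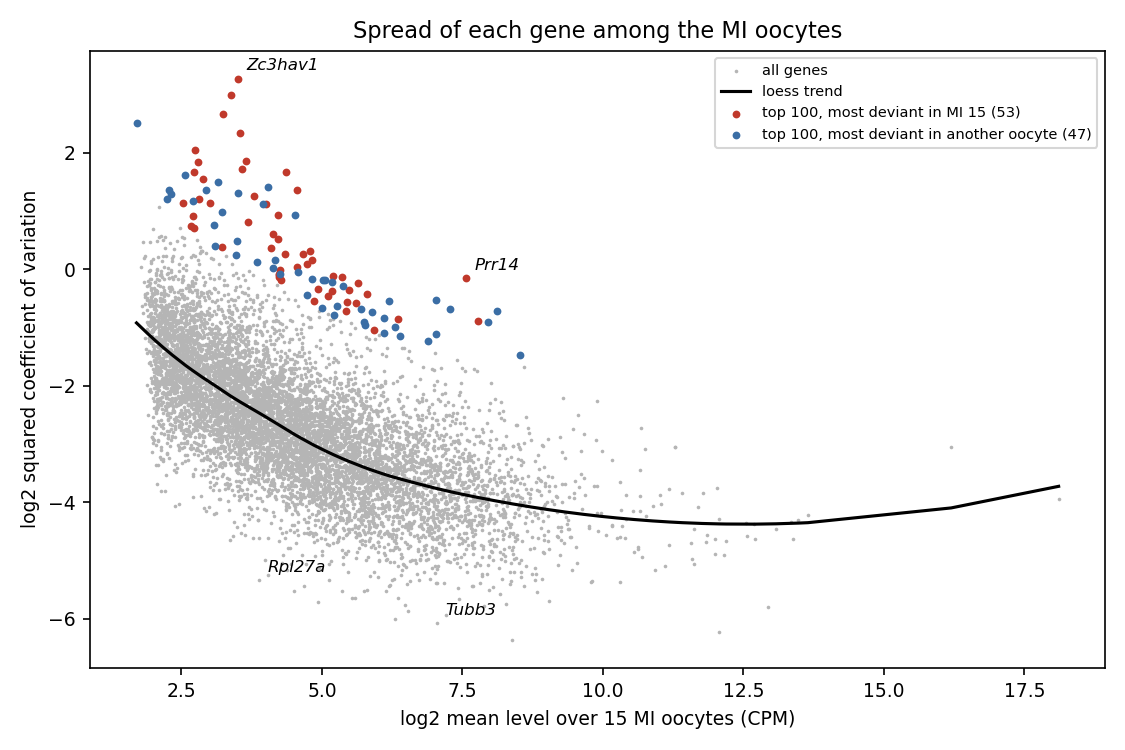
Log2 squared coefficient of variation of each of 8659 genes against its log2 mean CPM over the 15 MI oocytes, with the loess trend as a line. Of the 100 genes farthest above the trend, 53 are most deviant in MI 15 (red) and 47 in another oocyte (blue).

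Among the 20 genes with the largest excess, 14 were most deviant in MI 15, and most of these were low elsewhere. Zc3hav1, which encodes an antiviral zinc finger protein that binds CpG-rich RNA, ranked highest (chromosome 6, 38305286 to 38354603, GRCm38). Its level was 0.297 CPM in the lowest oocyte, 1.95 in the median and 138 in MI 15. The next oocyte, MI 3, had 6.69 CPM and no GV oocyte of the batch exceeded 2.40 CPM. Plcb3, a phospholipase C (chromosome 19, 6952325 to 6976470), ran from 0.234 CPM through a median of 2.38 to 117 in MI 15, with MI 4 next at 8.38. Both genes were thus low in 14 of 15 oocytes and high in 1.

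Other genes of the top 20 had the same shape. Smyd5, of the SET and MYND methyltransferase family, had 0.520, 2.65 and 94.5 CPM in the lowest, median and highest oocyte, and the highest was MI 15. Nacc2, a BTB-domain repressor, had 1.10, 4.65 and 105 CPM. Brpf1, a scaffold of a histone acetyltransferase complex, had 1.04, 6.35 and 89.7 CPM, and Tspyl2, a nucleosome assembly-like protein, 2.25, 12.8 and 151. In each of these MI 15 was the highest oocyte and the other 14 overlapped the range of the GV oocytes.

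Wbp1l reached 159 CPM in MI 15 with a median of 14.7, and Ralgps1, an exchange factor for Ral GTPases, 98.9 with a median of 6.48. Opa3, of the mitochondrial outer membrane, had 1.14 CPM in the lowest oocyte, 7.57 in the median and 89.0 in MI 15, and Fkbp8, a mitochondrial immunophilin, 1.09, 3.16 and 53.5. The pseudogene Gm11346 reached 55.7 CPM and the long noncoding RNA Gm33035 reached 96.7. All 6 were highest in MI 15, and Gm33035 was also raised in MI 9, at 34.0 CPM.

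Most of these MI 15 levels were seen in both count tables. Of the 53 genes of the top 100 that were most deviant in MI 15, 52 were highest there by HTSeq as well (98.1%), against 8.88% of all genes. The 53 were chosen by their RSEM levels in MI 15, and both tables come from the same libraries. The gap from all genes is therefore fixed by the choice and is no test. Their median log2 difference between MI 15 and the median of the other 14 was 2.79 by RSEM and 2.98 by HTSeq. A gene's transcripts were also compared with all others by 31-base words. The 53 shared a median of 0.882% of words with another gene, the other 47 shared 16.6%, and all genes 2.16%.

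Of the top 20, 6 genes were most deviant in an oocyte other than MI 15. Phlda2, an imprinted gene that restrains placental growth (chromosome 7, 143501545 to 143503150), had 0.371 CPM in the lowest oocyte, 7.81 in the median and 73.0 in MI 5. MI 12 was next at 19.0 CPM, so the gene was high in 1 oocyte. It shared 0% of its words with another gene, and its RSEM to HTSeq correlation was 0.998.

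Gm26917, a noncoding RNA next to the ribosomal RNA-like locus of chromosome 17 (39843013 to 39846341), had 0.156 CPM in the lowest oocyte, 0.835 in the median and 31.2 in MI 7. MI 7 alone held 92.2% of its squared deviations. Gm45633, a transcript model of uncertain status on chromosome 8, had 1.08, 3.67 and 60.9 CPM and was highest in MI 8. HTSeq gave it at most 0.113 CPM in any MI oocyte, so its level rests on RSEM alone and is uncertain.

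Hist2h3c2 and Cphx1 varied in ways that near-identical copies make uncertain. Hist2h3c2, a replication-type histone H3 gene (chromosome 3, 96238108 to 96239127), was listed at 0 CPM in MI 15, stood at 8.82 in the median oocyte and at 109.7 in MI 5. It shared 63.8% of its words with Gm20634 and HTSeq did not follow it. Cphx1, an oocyte homeobox gene, was listed at 0 in MI 15, had 0.667 CPM in the median oocyte and 79.7 in MI 2, followed by 42.6 in MI 11. It shared 78.8% of its words with Cphx3. One GV oocyte reached 126 CPM, so the wide spread of Cphx1 was found at both stages.

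Prr14, which tethers heterochromatin to the nuclear lamina (chromosome 7, 127459611 to 127476759), was the most abundant gene of the top 20. It had 26.9 CPM in MI 6, 110.4 in the median oocyte and 715 in MI 15. MI 5 followed with 350.2 CPM and MI 9 with 338, so several oocytes were high rather than 1, and a GV oocyte reached 520 CPM. The noncoding RNA Gm26870 was likewise spread over more oocytes, with 3.60 CPM in the lowest, 6.87 in the median, 51.1 in MI 2 and 97.8 in MI 15. It shared 75.3% of its words with other genes and HTSeq gave it at most 1.48 CPM.

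**Figure D3:**
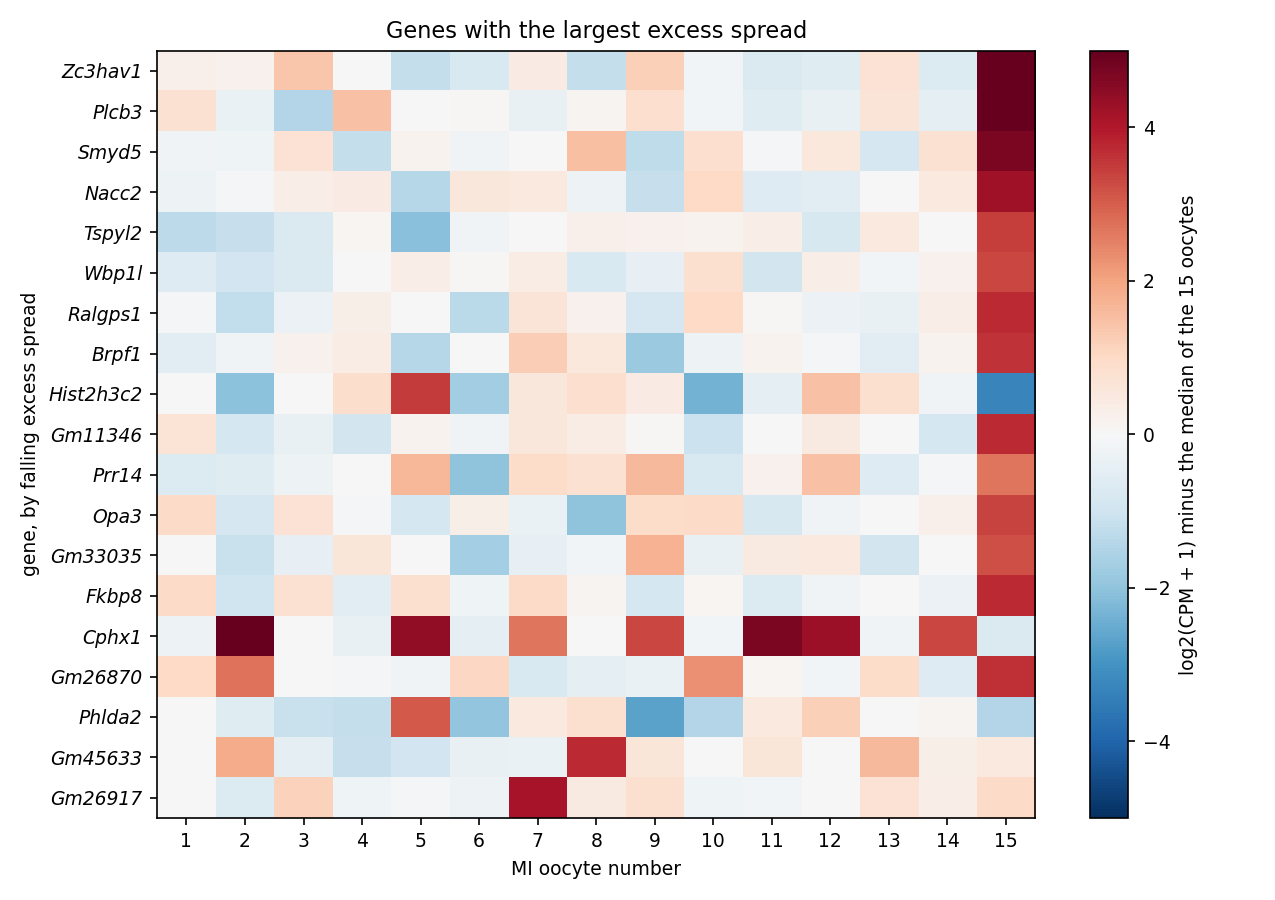
Log2(CPM + 1) of genes with the largest excess, less the median of the 15 MI oocytes, with genes down the side and oocytes across. Of these genes, 14 are most deviant in MI 15, among them Zc3hav1, which reaches 138 CPM there against a median of 1.95.

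Without MI 15 the ranking changed. Of its 100 leading genes, 51 were among the 100 found with MI 15, and 8811 genes passed the same minimum. Zc3hav1, Plcb3, Smyd5, Gm11346 and Fkbp8 no longer reached a mean of 50 counts. The CV of Nacc2 was 52.0% without MI 15 and 224% with it, and that of Wbp1l was 41.6% and 161%. By contrast Hist2h3c2, Gm26917, Gm45633, Cphx1 and Phlda2 were then among the first 6 genes, and Prr14 took place 15 with a CV of 71.8%. The median CV of the 100 was 84.9%, against 37.3% for all genes. A single oocyte held most of the deviations in 34, and in 857 of all 8811 genes (9.73%). MI 11 (22 genes), MI 3 (19), MI 5 (14), MI 8 (11) and MI 7 (10) were most often the deviant one among the 100.

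In 62 of these 100 genes the RSEM to HTSeq correlation was under 0.5 or not defined, and in 25 it was over 0.9. With MI 15 the counts for its own 100 genes were 35 and 61. Over all 8659 genes, 669 had a correlation under 0.5, 63 had none defined and 4628 had one over 0.9. A single oocyte high in both tables raises such a correlation, so these counts also follow the shape of the spread. Rorb, an orphan nuclear receptor, is an example with a low correlation, chosen after its values were seen. It had 89.9 CPM in the lowest of the 14 oocytes, 206 in the median and 857 in MI 9, and its correlation with HTSeq was -0.0461. Myh7, a cardiac myosin, is an example with a high one, also chosen afterwards. It ran from 0 through a median of 1.62 to 40.3 CPM in MI 7, with a correlation of 0.949.

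Some genes varied together among the oocytes other than MI 15. Mrpl13, a subunit of the mitochondrial ribosome (chromosome 15, 55534094 to 55557748), had 8.82 CPM in MI 9, 60.7 in the median oocyte, 166 in MI 3 and 171 in MI 11. Its level is uncertain, since HTSeq gave at most 14.1 CPM and a retained intron held most of its counts. That transcript held 96.7% of them in MI 11 and 94.3% in the other MI oocytes. GV oocytes had between 19.9 and 63.5 CPM. Over the 14 oocytes without MI 15, 145 genes followed Mrpl13 with a Pearson correlation over 0.9 on log2(CPM + 1). The group was formed after the values were seen, is a description with n = 14, and was given no test.

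These 145 genes were low in MI 9 and high in MI 3, MI 7 and MI 11. The choice of genes by Mrpl13 fixes that pattern. Of them, 144 were lowest in MI 9, against 1305 of all genes (15.1%), and 142 were highest in 1 of the other 3, against 3213 (37.1%). Their median difference from each gene's own median was 1.38 log2 units in MI 11, 1.37 in MI 3, 1.21 in MI 7 and -2.42 in MI 9, while all genes stood at 0.12, 0.06, 0.31 and -0.17. MI 10 and MI 12 were lower too, at -0.87 and -0.70. Their median CV was 70.9% at MI and 43.8% at GV, while all genes had 37.0% and 33.5%. The group supplied 31 of the 100 leading genes without MI 15 and 18 of those with it. Its genes were chosen on these MI oocytes to follow a gene of large spread there. The choice thus favours a larger CV at MI than at GV and a high rank, and neither is a test.

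By HTSeq the pattern could be read only in part, since most of these genes had few counts there. The 47 with a median HTSeq count of at least 10, a limit set after the values were seen, had a median difference by HTSeq of -1.47 in MI 9, 0.44 in MI 7, 0.29 in MI 11 and 0.08 in MI 3, and by RSEM of -2.20, 1.19, 1.36 and 1.33. MI 10 and MI 12 had -0.23 and 0.09 by HTSeq, and -0.87 and -0.57 by RSEM. MI 9 was thus low in both tables, while the high value in MI 3 and the low one in MI 12 were seen by RSEM only. In 126 of the 145 genes, 86.9%, the median expected count was over 2 times the median HTSeq count, against 797 genes, 9.20%, of all. The median HTSeq count was under 10 in 98 of them, 67.6%, against 5.65% of all genes. For 45 of the 145, 31.03%, the leading transcript was a retained intron, against 3.58% of all genes, and 59.3% are protein-coding, against 92.2%. A median of 2.43% of their words occurred in at least 20 genes, against 0% for all genes. What part these features played in the shared pattern was not tested.

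Named members of the group span unrelated roles, and those without another reason to be named were chosen after their values were seen. Dct, a melanin-synthesis enzyme (chromosome 14, 118012790 to 118052244), had 15.98, 205 and 640.1 CPM in the lowest, median and highest of the 14 oocytes, with a median of 2738 expected counts but 8 HTSeq counts. Trpm2, a cation channel (chromosome 10, 77907722 to 77970563), had 12.8, 112 and 335 CPM, with medians of 1483 expected counts and 3 HTSeq counts. Both were lowest in MI 9 and highest in MI 11, and their leading transcripts are retained introns.

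Ndrg3, of the NDRG family (chromosome 2, 156927345 to 156992056), had 8.81, 117 and 400.8 CPM, with at most 91.7 CPM in a GV oocyte. Zmynd8, a chromatin reader, had 55.6, 346.5 and 773 CPM. Both were again lowest in MI 9 and highest in MI 11. Median HTSeq counts were 69 for Ndrg3 and 559 for Zmynd8, against 1386 and 4215 expected counts. Levels of Dct and Trpm2, which HTSeq hardly counted, are uncertain as gene levels.

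A smaller group followed Prr14, again formed after the values were seen. It held 11 genes with a correlation over 0.9 across the same 14 oocytes, Smu1, Rpl7a, Polr1d, Sdhc, Ube2w, Zfp277, Cage1, A730082K24Rik, Gm28387, Gm40617 and 2010001K21Rik. They include a splicing factor (Smu1), a ribosomal protein (Rpl7a), a subunit shared by RNA polymerases I and III (Polr1d) and a subunit of succinate dehydrogenase (Sdhc). Of the 11, 10 were lowest in MI 6, as were 2140 of all genes (24.7%). Their median difference was 0.71 log2 units in MI 5, 0.55 in MI 12, 0.45 in MI 9 and -1.03 in MI 6, while all genes stood at 0.09, 0.10, -0.17 and -0.39. The choice of genes by Prr14 fixes the direction of this pattern.

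Here HTSeq put the same oocytes at the ends. Its differences were 0.74 in MI 5, 0.48 in MI 12, 0.85 in MI 9 and -0.75 in MI 6, and the median RSEM to HTSeq correlation of the 11 was 0.891. The median CV was 36.4%, close to the 37.0% of all genes, and 26.8% at GV. These genes too were chosen on the MI oocytes, so the CVs are no test between stages.

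**Figure D4:**
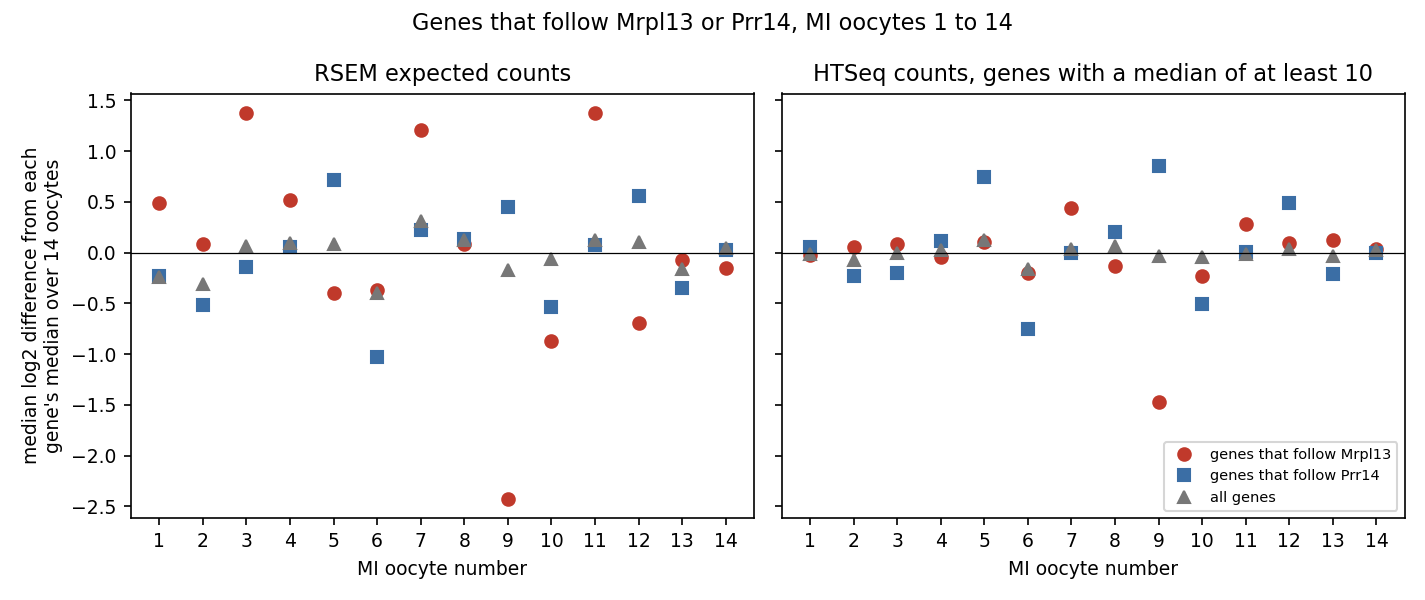
Median log2 difference from each gene's own median over MI oocytes 1 to 14, for 145 genes that follow Mrpl13, 11 that follow Prr14 and all genes, in RSEM expected counts and in HTSeq counts. The HTSeq panel holds genes with a median HTSeq count of at least 10, and the genes that follow Mrpl13 lie at -2.42 in MI 9 by RSEM and, for 47 of them, at -1.47 by HTSeq.

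Several mitochondrial genes and their nuclear copies varied more one by one than summed. mt-Co3, a subunit of cytochrome oxidase, was listed at 0 in MI 15 and had 37.1 CPM in the median oocyte and 79.9 in MI 8. It shares all its words with the pseudogene Gm28437 on chromosome 1 (24613189 to 24613971), which was listed at 0 in MI 11 and reached 90.3 CPM in MI 1. Each had a CV near the other's, 93.6% and 94.3%, while their sum had 43.4%. For mt-Co2 and Gm28661 the CVs were 67.9% and 101%, and that of the sum 37.9%. For mt-Atp6 and Gm10925 they were 67.4% and 57.8%, and 48.4% for the sum. In these 3 pairs the sum varied less than either member. The members had a Pearson correlation of -0.578 for mt-Co3 and Gm28437 and -0.567 for mt-Co2 and Gm28661. For mt-Atp6 and Gm10925 it was 0.220, so these did not move against each other. A sum of features of comparable level can vary less than each, so the CVs alone do not show reads passing between copies. mt-Co1 and Gm29216 share fewer words, 61.8% of those of mt-Co1, and had CVs of 39.3% and 33.5%, and 36.0% for the sum.

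In other pairs the sum varied about as little as the steadier member, which was also the more abundant. Median levels were 97.9 CPM for Duxbl3 and 3.81 for Duxbl2, and 443 for Cphx3 and 0.667 for Cphx1. They were 64.5 CPM for Ccpg1 and 0.940 for Gm44503. The abundant member makes up most of such a sum, so by arithmetic the CV of the sum lies near its own. Duxbl2 had a CV of 141%, Duxbl3, with which it shares all its words, 28.0%, and their sum 24.4%. Cphx1 and Cphx3 had CVs of 148% and 22.8%, and 23.3% for the sum. Gm44503 and Ccpg1, an autophagy receptor of the endoplasmic reticulum, had 160.3% and 35.4%, and 28.1% for the sum. Hist2h3c2 differed, since it and Gm20634 had CVs of 163% and 71.6% and their sum kept 94.7%. Levels of single members of these pairs are uncertain.

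The 2 most abundant features were ribosomal RNA-like. CT010467.1 held 176410 CPM in MI 7, 262190 in the median oocyte and 415210 in MI 6. It overlaps Gm42418 on chromosome 17, with which 73.0% of its words are shared, and Gm42418 ranged up to 120850 CPM. HTSeq listed Gm42418 at 0, so how reads divide between them is uncertain. Gm37724, a long noncoding RNA of chromosome 1, came next with up to 16477 CPM, but at most 12.8 by HTSeq, so its level is uncertain too.

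Genes of oocyte identity varied little in CV but mostly lay above the trend. All 20 passed the minimum, 15 had an excess over 0, and their median excess was 0.47 against 0.01 for all genes. Their median CV was 31.3%. Zp3, the zona pellucida sperm receptor (chromosome 5, 135980099 to 135988624), had the largest excess, with 68.5 CPM in MI 6, 301 in the median and 517 in MI 5. Ooep, of the subcortical maternal complex (chromosome 9, 78376109 to 78378725), had the smallest, with 139 CPM in MI 15, 203 in the median and 268 in MI 5. None of the 20 was called in the fit on depth, beside 3.25% of all genes.

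Regulators of the meiotic cell cycle varied about as all genes did. Of 34, 33 passed, 19 lay above the trend, and the median excess was 0.14 (0.22 without MI 15). Ttk, the MPS1 kinase of the spindle checkpoint (chromosome 9, 83834689 to 83872389), had the largest excess, with 69.1 CPM in MI 6, 176 in the median, 322 in MI 4 and 374 in MI 15. Pkmyt1, a kinase that restrains CDK1, had the smallest, with 1.63, 4.80 and 7.35 CPM in the lowest, median and highest oocyte.

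Maternal messages whose translation rises during maturation lay on the trend in the median. All 17 passed, 8 were above it, the median excess was -0.03 (-0.01 without MI 15) and the median CV 26.1%. Ccnb1, the cyclin that activates CDK1 (chromosome 13, 100778650 to 100786570), was the most variable for its level, with 118 CPM in MI 15, 297 in the median and 582 in MI 5. It shares 26.4% of its words with other genes, most with Ccnb1-ps. Cnot6l, a deadenylase subunit, was the least, with 226, 365 and 463 CPM.

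The CCR4-NOT complex and other decay factors lay below the trend in the median, which was not tested against all genes. Of 32, 30 passed and 10 lay above it, and the median excess was -0.35. Tut7, a terminal uridylyltransferase that marks messages for decay (chromosome 13, 59771561 to 59823147), had the largest excess, with 88.8 CPM in MI 6, 166 in the median, 319 in MI 9 and 560 in MI 15. Its leading transcript in MI 15 is a retained intron with 94.0% of its counts, and HTSeq gave at most 116 CPM. Zar1l, a maternal RNA-binding protein, had the smallest excess, with 71.4, 109 and 129 CPM.

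Spindle and microtubule genes leaned above the trend, with 23 of the 29 that passed, of 32, over it and a median excess of 0.26. Kif11, the bipolar kinesin of the spindle (chromosome 19, 37376403 to 37421859), had 17.6 CPM in MI 1, 45.4 in the median, 88.4 in MI 3 and 112 in MI 7. Tubb3, a beta-tubulin (chromosome 8, 123411424 to 123422015), was among the steadiest genes, with 82.7 CPM in MI 15, 137 in the median and 151 in MI 14. Its CV was 12.2% over 15 oocytes and 6.41% without MI 15, when it had the smallest excess of the 8811 genes. Kif11 was thus high in several oocytes, while the spread of Tubb3 came mostly from MI 15.

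Ribosomal genes differed by compartment in the median. Of 91 cytoplasmic ribosomal protein genes 79 passed, 29 lay above the trend and the median excess was -0.35. Rpl23a had 4.50, 11.6 and 40.2 CPM, highest in MI 9, but shares 81.8% of its words with other genes. Rpl27a, with 11.4, 15.0 and 19.2 CPM, had the smallest excess of all 8659 genes by expected counts, though by HTSeq its excess was 0.24. Of 83 mitochondrial ribosomal protein genes 70 passed, 40 lay above the trend and the median excess was 0.12, with Mrpl13 at one end and Mrpl52 (1.11, 4.00 and 7.18 CPM) at the other.

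Nuclear-encoded respiratory chain genes also lay low in the median, and those of the mitochondrial genome high. Neither list was tested against all genes. Of 97 nuclear genes 71 passed, 24 lay above the trend and the median excess was -0.34. Ndufv1, a core subunit of complex I (chromosome 19, 4007384 to 4012806), had the largest excess, with 3.35 CPM in MI 6, 12.8 in the median, 24.7 in MI 12 and 96.0 in MI 15. Its CV was 119% with MI 15 and 45.6% without. Uqcrb, of complex III, had the smallest, with 4.43, 8.98 and 11.2 CPM. Of 37 mitochondrially encoded genes 13 passed and 10 lay above the trend, with a median excess of 0.87 that copies such as that of mt-Co3 enter, and mt-Nd6 (22.2, 30.8 and 54.0 CPM) was the steadiest.

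Proteasome subunits had a median excess of 0.32, with 23 of the 34 that passed, of 39, above the trend. Psmb1, a core beta subunit (chromosome 17, 15475021 to 15499751), had 43.4 CPM in MI 6, 148 in the median, 309.6 in MI 5 and 418 in MI 9, with an RSEM to HTSeq correlation of 0.977. Psmd3, of the regulatory lid, had 4.43, 11.8 and 16.4 CPM. Psmb1 was high in MI 5, MI 9 and MI 12 and low in MI 6, the same oocytes as for the genes that follow Prr14.

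Stress genes lay near the trend, with 7 of the 14 that passed, of 29, above it and a median excess of 0.15. Hspa5, the chaperone of the endoplasmic reticulum, had 66.8 CPM in MI 15, 159 in the median and 312 in MI 11. Dnaja1, a cytosolic co-chaperone, had 268, 384 and 498 CPM, a CV of 15.2%. Of 70 canonical histone genes 24 passed and 15 were above the trend, with a median excess of 0.13 (0.38 without MI 15), led by Hist2h3c2. Hist1h4h (1.24, 3.85 and 7.12 CPM) was the steadiest of them.

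Small structured noncoding RNAs and genes of zygotic genome activation were few. Of 16 small RNAs 6 passed and 4 lay above the trend, with a median excess of 1.10 (0.61 without MI 15). Rn7s6, a signal recognition particle RNA, had 183 CPM in MI 5, 593 in the median and 1304 in MI 10, and shares 46.7% of its words with Rn7s1. HTSeq gave Rn7s6 at most 11.5 CPM, so its level is uncertain. Gas5, counted in this list though annotated as a processed transcript, had 1.48, 5.47 and 11.0 CPM. Of 23 zygotic activation genes 8 passed and 6 lay above the trend, with a median excess of 0.77. Obox2, an oocyte homeobox gene, had 264 CPM in MI 15, 840 in the median and 1139 in MI 8, but shares 83.2% of its words with other genes, most with Obox1, and Dppa2 had 17.8, 39.7 and 65.6 CPM.

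Among markers of other cells, 3 of 20 cumulus and granulosa genes passed, with a median CV of 53.8%, and 2 lay above the trend. Nr5a2 had the largest excess of these and Cyp19a1, the aromatase, the smallest, with 6.79, 13.2 and 23.7 CPM. Of the theca, stroma and endothelium markers 2 passed, 1 above the trend. Pecam1 had 24.5 CPM in MI 15, 59.7 in the median and 109 in MI 11, and Vwf had 5.32, 12.0 and 21.7 but a median of 0.342 by HTSeq, so its level is uncertain. No blood marker passed.

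By expected counts the steadiest genes for their level were Rpl27a, Scoc, Vmn1r220, Fkbp2 and Gm16244. Scoc, a Golgi coiled-coil protein, had 12.9, 15.8 and 22.2 CPM, a CV of 16.2% (24.3% by HTSeq). Fkbp2, an immunophilin of the endoplasmic reticulum, had 23.1, 30.3 and 40.3 CPM, a CV of 13.8%. By HTSeq its CV was 30.8% and its excess -0.05, on the trend, and that of Rpl27a was 47.5% with an excess of 0.24, above it. Vmn1r220, a vomeronasal receptor gene, had 17.8, 22.4 and 29.4 CPM by RSEM, but at most 0.302 by HTSeq. Gm16244 (3.90, 4.57 and 7.64 CPM) likewise reached 2.22 CPM at most by HTSeq, so both levels are uncertain.

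The fit on depth asked which genes' relative levels went with library size inside the MI stage. With edgeR, 281 of 8659 genes (3.25%) were called at an adjusted p under 0.05 in a two-sided test, 46 (0.531%) higher and 235 (2.71%) lower in deeper libraries, and 1416 passed an unadjusted p of 0.05. Without MI 15, edgeR called 0 of 8811, with 227 at an unadjusted p under 0.05. MI 15 was the highest of the 15 oocytes in 233 of the 235 lower genes and the lowest in all 46 higher ones. The calls with edgeR were thus lost without 1 library, which also leaves a narrower range of depth.

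Among genes higher with depth, Trpm7, a channel and kinase for magnesium, had 5.54 CPM in MI 15, 36.3 in the median oocyte and 76.5 in MI 8. Its slope was 1.07 log2 units per doubling of depth (SE 0.214, n = 15, adjusted p = 0.00378 by edgeR). Rbmx2, of the spliceosome, was listed at 0 in MI 15, had 3.57 CPM in the median and 14.0 in MI 8, with a slope of 2.64 (SE 0.558, adjusted p = 0.00597 by edgeR). Proc, the anticoagulant protein C, was listed at 0 in MI 15 and had 4.75 CPM in the median and 13.9 in MI 8, with a slope of 2.32 (SE 0.499, adjusted p = 0.00675 by edgeR). All 3 were highest in MI 8, the deepest library, and lowest in MI 15, the shallowest, where a count of 0 limits how low a level can be told. Without MI 15 their slopes were of like size, 1.26 for Trpm7, 2.52 for Rbmx2 and 2.01 for Proc, but none was called by edgeR.

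Genes lower with depth were those high in MI 15. Lrrc8b, of the volume-regulated anion channel (chromosome 5, 105415775 to 105490074), had 19.6 CPM in MI 2, 36.9 in the median and 212 in MI 15, with a slope of -1.13 (SE 0.124, adjusted p = 6.3e-06 by edgeR). Zc3hav1 had a slope of -2.64 (SE 0.284) and Nacc2 of -1.97 (SE 0.212), each with the same adjusted p by edgeR. Zc3hav1 reached the minimum of 50 counts only through MI 15, so its slope restates that 1 level and could not be fitted without it. Without MI 15 the slope of Lrrc8b was -0.21 and that of Nacc2 -0.87, and neither was called.

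Members of the lists were called in small numbers, to be read beside the 3.25% of all genes. Lower with depth were Ttk, 1 of 33 meiotic regulators, 2 of 30 decay factors including Tut7, 2 of 29 spindle genes, Ndufv1, 1 of 71 respiratory genes, and 1 of 70 mitochondrial ribosomal protein genes. Higher was 1 of 8 zygotic activation genes. None of these was called without MI 15. The split by direction also depended on scaling. With library totals in place of TMM factors, edgeR called 365 genes, 291 higher and 74 lower, and the median slope of all genes moved from 0.10 to 0.36. DESeq2 called 420, 75 higher and 345 lower. Of the 281 calls, 74 came with a slope over 1 log2 unit, a change over 2-fold per doubling, 22 higher and 52 lower.

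The fit on mt share called 0 of 8646 genes outside the mitochondrial genome with edgeR (0%), 943 passed an unadjusted p of 0.05, and DESeq2 called 5. The higher genes with the smallest p were Gm22567, a small RNA, Hist1h4c, a histone H4 gene, and Pparg, a nuclear receptor of lipid metabolism. Hist1h4c had 34.3 CPM in MI 6, 161 in the median and 259 in MI 1. Its slope per doubling of mt share was 1.81, that of Gm22567 1.43 and that of Pparg 2.51 (adjusted p = 0.275 for each by edgeR). Gm22567 had 72.3, 169 and 314 CPM by RSEM and at most 9.62 by HTSeq, and Pparg had 2.72, 11.5 and 31.2 CPM. MI 1, whose mt share is among the highest, had the highest level of all 3.

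The lower genes with the smallest p were Smarcc2, a subunit of the BAF remodeller, Med13l, of the Mediator kinase module, and Tub. Smarcc2 had 10.6 CPM in MI 1, 25.8 in the median and 47.2 in MI 10, with a slope of -1.81. Med13l had 14.7, 25.2 and 50.8 CPM and a slope of -1.64, and Tub 3.18, 12.3 and 50.9 CPM and a slope of -2.88, each with an adjusted p of 0.275 by edgeR. All 3 were lowest in MI 1. DESeq2 called these 3 lower, and Hist1h4c and Gm49371 higher, the last named after its values were seen.

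The split by HTSeq to RSEM ratio compared MI 4, MI 8 and MI 9 with the other 12. On expected counts edgeR called 0 of 8659 genes (0%), 229 passed an unadjusted p of 0.05, and DESeq2 called 3 lower in the low-ratio oocytes, Gm28437, Ppm1l and Pdpr. Gm28437, the copy of mt-Co3 described above, had a log2 difference of -8.13 (SE 1.44, adjusted p = 0.0917 by edgeR). Without MI 3 its adjusted p by edgeR was 0.0214, and without MI 11 it was 0.000351. Without MI 4 the 1 call by edgeR was Ankrd33b, at -7.17, named after its values were seen. Ppm1l, a phosphatase, had 2.73 CPM in MI 8, 12.9 in the median and 28.4 in MI 11, and Pdpr, a regulator of pyruvate dehydrogenase, 0.743 in MI 9, 9.35 in the median and 16.3 in MI 6, with log2 differences of -1.77 and -1.83.

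Genes higher in the low-ratio oocytes were led by Lpin1, a phosphatidate phosphatase, Adamts3, a procollagen peptidase, and Rpap2, a phosphatase of RNA polymerase II. Lpin1 had 0.369, 2.65 and 20.8 CPM, highest in MI 8 and then MI 4, and a log2 difference of 2.23. Adamts3 reached 37.3 CPM in MI 9 with 8.66 next, and differed by 1.81, so its difference rests on 1 oocyte. Rpap2 had 30.6, 76.0 and 146 CPM, highest in MI 4, and differed by 0.77. On HTSeq counts edgeR called 76 genes, 7 higher and 69 lower. The groups were formed by HTSeq counts relative to expected counts, so that number draws on values that formed them. The 5 measures of depth and composition did not pass an exact permutation test between these 3 and the other 12 oocytes, over 455 assignments, with 0 of 5 called.

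A model of log2(CPM + 1) on depth, mt share and ratio gave the share of each gene's variance that these measures describe. It is an adjusted R2 with no test. Whether these measures differ between oocytes for technical or biological reasons was not tested. With all 3 terms the median over genes was 11.8%, and over the 100 genes with the largest excess 24.0%. Depth alone gave a median of 9.32%, mt share -1.62% and the ratio -4.60%, where a negative value means less than the term would take by its number alone. The share was over 50% in 673 genes, 7.77% of all, and in 12 of the 100. Zc3hav1 had 63.2% and Plcb3 82.7%, but both reached the minimum of 50 counts only through MI 15, the shallowest library. Their shares thus restate that 1 level. Gm26917 had -20.8% and Phlda2 7.62%.

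MI 15 carried most of that share. Without it the median over all genes was 0.704%, and over the 100 leading genes without it 0.602%. With CPM by TMM library sizes the median was 7.63%. Among the lists, zygotic activation genes had a median of 46.3% with MI 15 and 7.15% without, and small noncoding RNAs 47.8% and 25.4%. Decay factors changed little, with 8.91% and 8.96%, and canonical histone genes had 28.9% and 20.5%. Mitochondrially encoded genes, which make up the mt share, had 18.3% and 20.01%, and oocyte markers 16.4% and 4.41%. Most of the spread among the other 14 oocytes was therefore not described by these 3 measures.

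The leading component of the MI oocytes went with the ribosomal RNA-like share. The first 3 principal components of log2(CPM + 1) held 30.6%, 14.7% and 8.58% of the variance. Among 5 measures of the libraries and the 3 components, 15 relations were computed with two-sided permutation tests, and 4 passed an adjusted p of 0.05 for Pearson's r. Ribosomal RNA-like share and the first component had r = 0.892 (permutation p = 1e-05, the smallest that the permutations can give, adjusted p = 0.00015) and rho = 0.843 (permutation p = 0.00024, adjusted p = 0.0036, n = 15). Without the 2 oocytes farthest in share, MI 6 and MI 15, r was 0.888. Without MI 15 alone r was 0.895 (adjusted p = 0.0006 by permutation), the only relation of the 15 that then passed. By HTSeq, where the share is lower, r was 0.753 (adjusted p = 0.00488 by permutation). There rho was 0.625 and did not pass (adjusted p = 0.119 by permutation).

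A larger share of 1 kind of feature lowers the CPM of all others, so this relation was also computed on levels scaled by TMM. There r was 0.594 (permutation p = 0.00673, adjusted p = 0.0365), rho was 0.575 (permutation p = 0.0263, adjusted p = 0.345), and r without MI 6 and MI 15 was 0.409. On the CPM scale, genes that went up with the first component included Gm44503, Gm26870 and Opa3, and genes that went down included Hist2h3c2 and Wdcp.

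The other 3 relations involved depth. Depth and genes detected had r = 0.827 (permutation p = 0.00486, adjusted p = 0.0243) and rho = 0.393 (permutation p = 0.149, adjusted p = 0.320), and r was 0.338 without MI 8 and MI 15. Depth and the first component had r = -0.762 (permutation p = 0.00386, adjusted p = 0.0243) and rho = -0.429 (permutation p = 0.113, adjusted p = 0.320), and r was -0.397 without the same pair. Depth and ribosomal RNA-like share had r = -0.578 (permutation p = 0.00729, adjusted p = 0.0273) and rho = -0.489 (permutation p = 0.0662, adjusted p = 0.268), and r was -0.514 without them. None of the 3 passed by rho or without MI 15. On TMM levels the second did not pass (r = -0.821, adjusted permutation p = 0.101). By HTSeq the first passed by r and by rho (adjusted permutation p = 0.00488 and 0.0129) while those of depth with the component and with ribosomal RNA-like share did not (adjusted permutation p = 0.161 and 0.0968). Without MI 4, MI 8 and MI 9 the relation with ribosomal RNA-like share did not pass either (adjusted permutation p = 0.0801). Without MI 15 alone r was 0.408, -0.424 and -0.479 in that order (adjusted permutation p = 0.408 for each).

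MI oocytes lay farther from one another than GV oocytes of the batch did, over the genes that passed the minimum at MI. That set holds genes that passed only through high MI levels and leaves out genes that would pass only at GV. The gap was not computed on genes chosen without regard to stage. The median distance to the others of its stage was 0.112 ± 0.0206 (SD, n = 15) at MI and 0.0886 ± 0.0149 (n = 10) at GV. Without MI 15 it was 0.108 ± 0.0148 at MI. Oocytes of a stage share the distances between them, so these values depend on one another and no p is given. At MI, 3 of 15 oocytes lay above all GV oocytes and 0 below all of them. The mt share was lower at MI, 1.57% ± 0.294 against 2.06% ± 0.435, with a permutation p of 0.00252 and an adjusted p of 0.0126 over the 5 measures other than distance, a family made smaller after seeing the data, and 7 of 15 MI oocytes lay below all GV oocytes. Without MI 15 it was 1.59% ± 0.289, with an adjusted permutation p of 0.0151. The other 4 measures did not pass, with adjusted permutation p from 0.779 to 0.994. On HTSeq counts the genes detected were fewer at MI, 16277 against 17948 (adjusted permutation p = 0.0347). Without MI 15, a setting chosen after seeing the data, the MI mean by HTSeq was 16469 and the measure did not pass (adjusted permutation p = 0.0544). In the first family of 6, which held the distance, it did pass there (adjusted permutation p = 0.0435). GV libraries held 7184205 to 17724506 expected counts. All MI oocytes were cultured for 8 h and no culture is given for the GV oocytes, so stage and culture cannot be told apart.

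Gene by gene, the difference in spread between stages did not pass. With limma on absolute deviations from the stage median, 0 of 8633 genes (0%) were called and 284 passed an unadjusted p of 0.05. With square roots of the deviations, a scale added after seeing the data, limma called 0 and 233 passed. On simulated data the first of these fits recovered none of the differences put in, so its count of 0 does not show that the spread was alike.

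The genes nearest to being more variable at MI were F630040K05Rik, Gm45509 and Msi2. F630040K05Rik, a noncoding RNA that follows Mrpl13, had 17.8 ± 14.3 CPM (SD, n = 15) at MI and 8.04 ± 1.64 (n = 10) at GV. Gm45509, another follower of Mrpl13, had 11.4 ± 9.63 and 3.75 ± 1.05 CPM, but a median of 0 by HTSeq. Msi2, an RNA-binding protein of the Musashi family, had 9.24 ± 7.75 and 7.53 ± 1.28 CPM, highest in MI 5 at 30.8. The genes nearest to being less variable at MI were 1700030N03Rik (11.8 ± 2.45 and 14.9 ± 8.93 CPM), Cphx2 (1.92 ± 2.48 and 9.53 ± 12.2 CPM) and Rrp12, a ribosome assembly factor (17.1 ± 4.50 and 13.9 ± 7.32 CPM). The mean of Cphx2 was lower at MI and its SD exceeded its mean at both stages. For its level a smaller spread at MI is thus not shown. HTSeq gave Cphx2 at most 0.327 CPM at MI, so its level and that of Gm45509 are uncertain. All 6 had an adjusted p of 0.996 by limma.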

How the data were processed

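The authors deposited gene tables of HTSeq counts (count units) and of RSEM expected counts (expected count units), not normalised, 1 column an oocyte. According to the submitters' notes reads were trimmed with Trim Galore 0.6.4, aligned to mm10 with STAR 2.7.6a and counted with HTSeq 0.12.4 and RSEM 1.3.1 against GENCODE VM20. Coordinates and gene types here come from GENCODE M21. The members and gene lists were chosen with earlier results of these data known.

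ERCC features were left out and CPM taken over the remaining total. Genes needed a mean of 50 expected counts. The trend was a loess of span 0.5 and degree 2. An oocyte's ratio is its median over genes averaging 100 HTSeq counts or more, and low means under 1.5. Ribosomal RNA-like features are those of rRNA type outside the mitochondrial genome, with Gm42418 and AY036118. Expected counts were rounded for tests. Slopes and differences were fitted with edgeR 4.0.16 (quasi-likelihood F test, TMM, Benjamini-Hochberg over all genes), 1 term at a time, with DESeq2 1.42.0 as an alternative, and spread between stages with limma 3.58.1, in R 4.3.3. Permutation tests used 100000 resamples. Measures were computed in Python 3.11.15 with scipy 1.17.1, pandas 2.3.3 and numpy 2.4.6, and plotted with matplotlib 3.10.9. Shared words are 31 bases long, with 1 in 8 sampled.

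Named genes were the 20 with the largest and 5 with the smallest excess, the 3 with the smallest p in each direction of each fit, both ends of each list and the 3 most abundant, except that 1 gene is not reported here. Tests were also tried on simulated data. Alternatives changed the count table, minimum, scaling, tool, scale of spread and the oocytes kept.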

Additional observations from a re-analysis of the deposited data

Results flagged for a closer look

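Among the 10 GV oocytes, GV 4 had the highest HTSeq to RSEM ratio, 2.20. Its gap to the next oocyte was 0.473 of the whole range, above the critical value of Dixon's test for 10 samples. It was the 1 value so marked among 8 measures, and chance marks about 1 in 20 groups. The critical values used end at 10 samples, so the 15 MI oocytes were not tested.

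ERCC spike-in features, not used in the comparisons, held counts in MI libraries. MI 13 had the most, 25 expected counts, and 12 of 15 MI oocytes had more than the 3 that a count of 0 allows, with a lowest of 0 and a median of 7.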

How the results depend on the processing

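Of 120 alternatives, 97 kept a result's direction and its side of the threshold, or its size, judged by its count or value. The same genes or relations need not have passed in them. On TMM levels, for example, depth with the first component did not pass. Of the 100 leading genes, leaving out 1 oocyte kept 51 (MI 15) to 98. HTSeq counts kept 53, or 54 with a minimum of 50 in both tables, a mean of 200 counts 54, the variance of log2(CPM + 1) 38, and residuals after the 3 measures 39. Leaving out MI 4, 8, 9 and 15, chosen after seeing the data, kept 46. For depth, leaving out 1 oocyte gave 0 (MI 15) to 374 calls by edgeR, with 227 unadjusted at the 0, library totals gave 365 and turned the split from 46 higher and 235 lower to 291 and 74, and a fold over 2 gave 74. For mt share the range by edgeR was 0 to 0, a mean of 10 counts gave 1 (Gm5641, named after its values were seen) and DESeq2 gave 5. For the ratio it was 0 to 1 (1 without MI 3, 4 or 11), HTSeq counts gave 76, library totals 1 and DESeq2 3. The median share of variance described by the 3 measures was 7.63% with TMM library sizes and 0.704% without MI 15. Relations passing numbered 4 with all oocytes, 3 on TMM levels or without low ratios, 3 by HTSeq (2 of the 4, and depth with the second component), 1 without MI 15 and 1 without MI 4, 8, 9 and 15. Of 5 measures set between stages, a family chosen after seeing the data, 1 passed. The first family of 6 also held the distance, whose values depend on one another, so its count of 2 is not used. By HTSeq mt share and genes detected passed among the 5 (adjusted permutation p = 0.0347 for each). With oocyte number as a replicate block, limma called 0 genes for spread between stages, with 320 unadjusted. GV and MI oocytes of the same number were not pairs by expression, with correlations from -0.271 to 0.188. Apart from removed oocytes, the causes of these changes were not tested. Depth limits calls of low genes in MI 15 above all, and with 15 oocytes of unknown parentage 1 library can decide a call.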
